A study of Capra hircus with 6 samples.

Results

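The tumour necrosis factor (TNF) superfamily was examined in dermal papilla cells (DPCs) of secondary hair follicles treated with all-trans retinoic acid (ATRA). Members were the rows of the deposited count table named as TNFSF ligands, TNFRSF receptors or TRAF1 to TRAF7, together with a short set of family genes under older names, such as FAS, CD40, NGFR, LTA, and EDAR, and the adaptors TRADD, FADD, and RIPK1. The rule found 55 rows among the 15944 listed. They comprised 14 ligands, 6 receptors with a death domain, 13 receptors that bind TRAFs, the decoy TNFRSF6B, 7 rows named for TRAIL receptors, 4 rows named Tnfrsf26, 7 TRAFs, and 3 adaptors. TNF, TNFSF11, and TNFRSF11B were not analysed here.

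The cells were wild-type primary cultures from scapular skin of adult Albas cashmere goats aged 3 years. The ATRA-treated group (3 libraries) received 100 µM ATRA for 24 h, and the control group (3 libraries) received none. Medium alone is given as the control for the study's cell assays. ATRA is the vitamin A metabolite that acts through the retinoic acid receptors. The study's methods state cells from 3 animals for the 6 libraries, so that control and ATRA libraries may share animals. The labels do not tie a library to an animal, and they give every library the same batch.

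TNF-family ligands are mostly trimers held on the cell surface or shed from it. They cluster their receptors, which then either gather TRAF proteins and switch on NF-κB and MAP kinases, or gather FADD and caspases through a death domain. In skin the family is known for EDA and EDAR, which set the pattern of hair follicles in the epithelium, and for inflammatory and apoptotic signals to fibroblasts.

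Libraries held between 35532339 and 38012771 counts. Normalized CPM, the counts per 1e+06 scaled counts, were scaled by TMM, whose factors were 0.842 to 0.851 in the control libraries and 1.16 to 1.20 in the ATRA libraries, so scaling bears on every modest difference here. Over all tested genes the median change with ATRA on the log2 scale (log₂FC) was 0.04, and with library size only it was 0.52. Mesenchymal genes were abundant in the control group, with VIM at 19158 ± 876 CPM (SD, n = 3), while the papilla genes ALPL, CORIN, and PROM1 had at most 1 count in every library. Of the same list, ACTA2, VCAN, and LEF1 stood at 6582 ± 462, 1641 ± 63.6, and 16.1 ± 1.63 CPM in the control group (SD, n = 3). SOX2, not tested, had 5, 0, and 2 counts without ATRA and 10, 16, and 9 with it. NOG, also not tested, had 8, 2, and 8 counts against 13, 11, and 9. All 11 tested genes of the mesenchymal and papilla list fell with ATRA, from a log₂FC of -0.44 for PDGFRB to -9.62 for ACTA2. Among all genes tested, 38.7% fell. In bulk samples, fewer cells of a type and less RNA per cell cannot be told apart.

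Of the 55 members, 34 had enough counts to be tested. Of the other 21, 15 had 3 counts or fewer in every library and none had more than 11. At an adjusted p under 0.05 (edgeR's quasi-likelihood test), 16 rose and 13 fell with ATRA, which is 47.1% and 38.2% of the members tested. Among all 12588 genes tested, 40.9% rose and 38.7% fell, so these shares lie near the background. With library size only the split was 21 higher and 9 lower. Under that setting the median log₂FC over all genes was 0.52, and the shares of all genes are not given here. The study's thresholds, |log₂FC| above 1 with p under 0.05 before adjustment, were applied here to the edgeR fit. At these, 9 members were higher and 6 lower (26.5% and 17.6%), against 13.7% and 17.3% of all genes. Of the 9, LTA, TNFSF13, and TRAF5 had 5 counts or fewer in every control library. Another 3 were rows named TNFRSF10B, with log₂FC of 1.01, 1.02, and 1.13, and FAS stood at 1.04. The 7 rows named for TRAIL receptors, when summed, had a log₂FC of 0.96, short of the fold threshold. With R's t.test, the test the study used, run on log2(CPM + 1), 3 were higher and 5 lower. With a filter of 1 CPM in 3 libraries, 6 were higher and 6 lower. The shares of all genes under these 2 settings are not given here. Groups that did not overlap were found with ATRA on the higher side for 16 of the 34 tested members and on the lower side for 13, against 41.2% and 39.0% of all genes. Among untested members, LTB and LOC108635334 were also higher in every ATRA library and TNFRSF19 lower, on 11 counts or fewer a library. The median log₂FC was 0.11 over the members tested, and the median size of the change was 0.88, against 0.59 over all genes. The plot of fold changes shows the members by role.

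**Figure D1:**
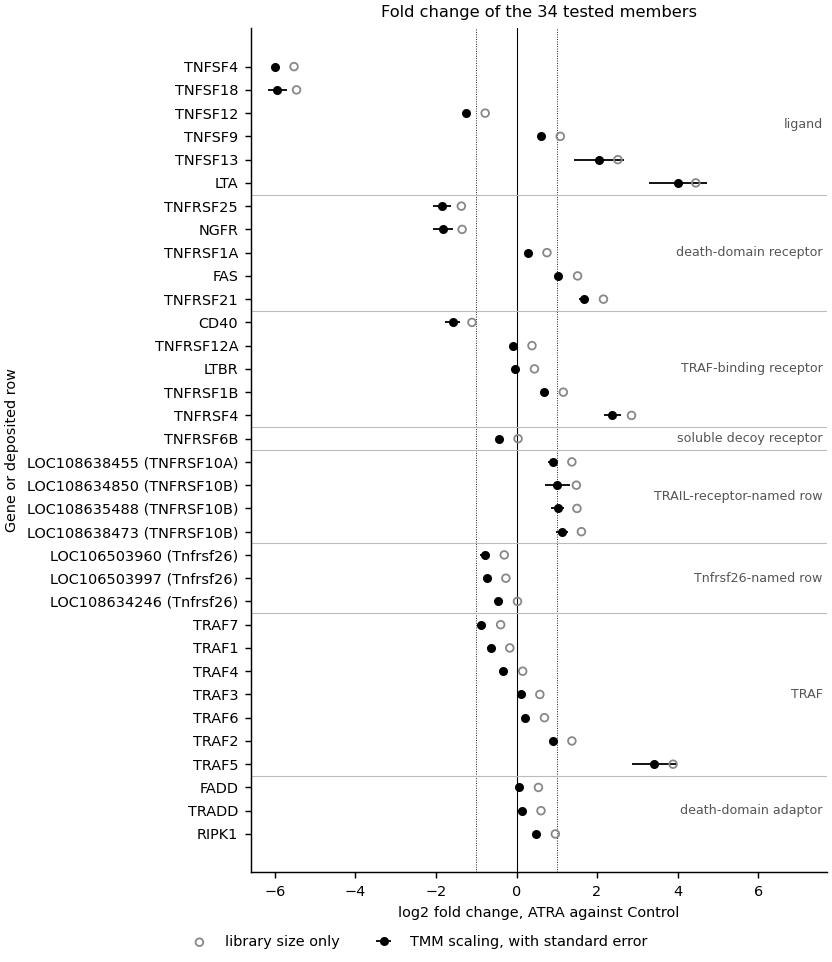
The x axis gives the log₂ fold change of ATRA against control for the 34 tested members, grouped by role. Filled points with bars are TMM-scaled values with their standard errors, open points are values with library size only, and dotted lines mark -1 and 1. TNFSF4 and TNFSF18 lie farthest to the left, at -6.00 and -5.94, and every open point lies to the right of its filled point.

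Among ligands, the largest differences were losses. TNFSF4, which encodes OX40 ligand, a co-stimulator of T cells, had 2430, 2652, and 2607 counts in the control libraries and 57, 61, and 43 in the ATRA libraries. The groups were far apart, at 80.5 ± 1.94 and 1.25 ± 0.183 normalized CPM (SD, n = 3 each). TNFSF4 was 64.2-fold lower with ATRA (log₂FC -6.00, standard error 0.102, adjusted p = 2.07e-19).

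TNFSF18, the ligand of GITR, another co-stimulatory receptor, had 219, 278, and 296 counts without ATRA and 5, 7, and 5 with it. Its level fell from 8.29 ± 1.11 to 0.132 ± 0.0235 CPM (SD, n = 3 each, log₂FC -5.94, standard error 0.243, adjusted p = 6.80e-14). Few reads remained in the ATRA libraries, and with a pseudocount of 1 CPM its log₂FC was -3.04.

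TNFSF12 encodes TWEAK, a cytokine that acts on fibroblasts and other stromal cells. It had 938, 915, and 887 counts in the control libraries and 521, 520, and 504 in the ATRA libraries. Its level fell from 28.7 ± 1.35 to 12.0 ± 0.199 CPM (SD, n = 3 each, log₂FC -1.26, standard error 0.0810, adjusted p = 6.57e-11). With library size only the log₂FC was -0.78, short of the fold threshold.

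TNFSF9, the ligand of the co-stimulatory receptor 4-1BB, moved the other way. It had 591, 653, and 607 counts without ATRA and 1304, 1304, and 1195 with it, so that the groups did not overlap. Its level rose from 19.4 ± 0.707 to 29.5 ± 0.646 CPM (SD, n = 3 each, log₂FC 0.61, standard error 0.0754, adjusted p = 6.76e-07).

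The lymphotoxin genes were close to absent in the control group. LTA, whose product is secreted mainly by lymphocytes, had 0, 1, and 1 counts without ATRA and 19, 15, and 16 with it (adjusted p = 5.68e-05). The ratio of its scaled counts was 18.6, with an exact 95% interval from 4.87 to 157 that covers counting error only. LTB, the membrane-bound partner of LTA, had 0, 1, and 0 counts against 6, 4, and 11, a ratio of 15.6 with an interval from 2.51 to 644. LTB did not pass the filter on low counts, and without that filter its adjusted p was 0.00445.

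TNFSF13, which encodes the B-cell factor APRIL, had 3, 5, and 0 counts in the control libraries and 11, 18, and 17 in the ATRA libraries. The ratio was 4.27 (exact 95% interval 1.99 to 10.5, adjusted p = 0.00618). These ligands stayed low even after the increase, LTA at 0.389 ± 0.0498 CPM and TNFSF13 at 0.358 ± 0.0895 CPM (SD, n = 3 each). Of the leukocyte markers, 8 of 15 were listed, and their summed level was 3.06 to 6.12 CPM in the control libraries and 11.1 to 12.4 in the ATRA libraries. CD68, a lysosomal gene of macrophages that other cells also express, gave most of it, while AIF1 and ITGAM had 3 counts or fewer in every library. TYROBP, an adaptor of myeloid and natural killer cells, was at 0 without ATRA and had 7, 4, and 3 counts with it. The T-cell gene CD3E had 1, 0, and 1 counts against 2, 5, and 3, and CD3G had 0 in every library but ATRA replicate 3, with 5. The part of these markers in the LTA, LTB, and TNFSF13 values was not tested.

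The other ligands were at or near the floor of detection. EDA, FASLG, TNFSF8, TNFSF10, TNFSF13B, and TNFSF15 had at most 2 counts in any library. TNFSF10 encodes TRAIL and FASLG the ligand of FAS, so neither death ligand was detectable beyond single reads at this depth, where 3 counts correspond to 0.0680 to 0.0967 CPM. TNFSF14, which encodes LIGHT, had 4, 0, and 5 counts without ATRA and 1, 0, and 0 with it, a ratio of 0.0824 (exact 95% interval 0.00188 to 0.595).

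**Figure D2:**
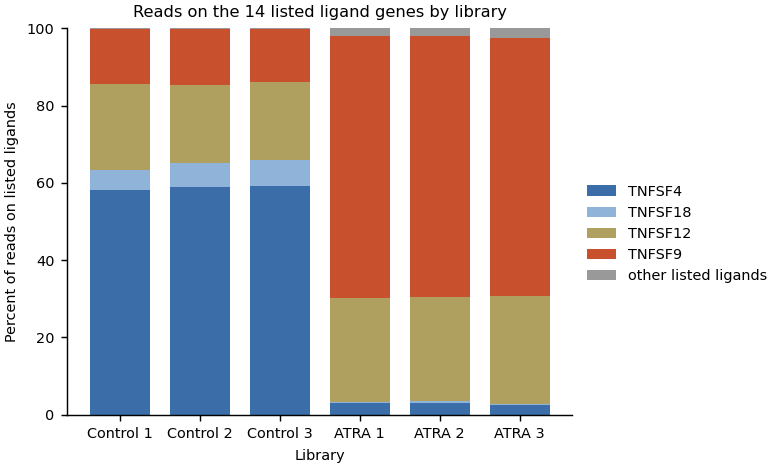
The bars give, for each of the 6 libraries on the x axis, the percent of all reads on the 14 listed ligand genes that each ligand took. TNFSF4 filled 58.0% to 59.2% of the control bars and 2.40% to 3.16% of the ATRA bars, where TNFSF9 filled 66.7% to 67.6%.

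The ligand reads changed in total and in make-up, from 4187, 4506, and 4406 reads in the control libraries to 1928, 1931, and 1791 in the ATRA libraries. Their summed level was 137 ± 2.20 CPM in the control group and 43.9 ± 0.669 CPM in the ATRA group (SD, n = 3 each). TNFSF4 took 58.7% ± 0.585 of the ligand reads without ATRA and 2.84% ± 0.393 with it (SD, n = 3 each). TNFSF9 took 14.1% ± 0.358 and 67.3% ± 0.499, and TNFSF12 took 20.9% ± 1.26 and 27.4% ± 0.674 (SD, n = 3 each). TNFSF18 took 5.23% to 6.72% and 0.259% to 0.363%, and the other ligands together took 0.199% ± 0.0193 and 2.20% ± 0.228 (SD, n = 3 each). The count of TNFSF9 per count of TNFSF4 was 0.233 to 0.246 without ATRA and 21.4 to 27.8 with it. Such shares and ratios of reads depend on transcript length as well as on the number of transcripts, and they do not depend on scaling. Together with 4 further ratios of receptors, ligands, and TRAFs, 12 sums, shares, and ratios were compared, and in each the groups did not overlap (exact permutation test, two-sided, p = 0.1 and 0.1 after Benjamini-Hochberg adjustment, the smallest p that 3 libraries against 3 can give). The 12 measures share genes and were chosen with earlier results known, so they add no evidence to the values of the single genes. Among all genes, the groups did not overlap for 41.2% with ATRA higher and 39.0% with ATRA lower.

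Receptors with a death domain rose and fell. FAS, which starts apoptosis through FADD and caspase-8, had 936, 985, and 928 counts in the control libraries and 2708, 2701, and 2477 in the ATRA libraries. Its level rose from 29.8 ± 0.829 to 61.2 ± 1.40 CPM (SD, n = 3 each, log₂FC 1.04, standard error 0.0660, adjusted p = 5.47e-11). TNFRSF21, known as death receptor 6, had 162, 183, and 259 counts against 854, 892, and 861. It rose from 6.31 ± 1.53 to 20.3 ± 0.525 CPM (SD, n = 3 each), 3.21-fold (log₂FC 1.68, standard error 0.126, adjusted p = 7.07e-10).

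TNFRSF1A, the main receptor for soluble TNF, differed less. It had 1542, 1464, and 1519 counts without ATRA and 2608, 2373, and 2409 with it, and rose from 47.4 ± 2.21 to 57.5 ± 3.33 CPM (SD, n = 3 each, log₂FC 0.28, standard error 0.0683, adjusted p = 0.00120). It overlaps PLEKHG6 in the reference gene table, but PLEKHG6 had at most 25 counts in any library.

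NGFR and TNFRSF25 fell. NGFR, the neurotrophin receptor p75, had 67, 67, and 67 counts in the control libraries and 29, 26, and 21 in the ATRA libraries (log₂FC -1.83, standard error 0.245, adjusted p = 1.80e-06). The Schwann cell genes NCAM1 and S100B, which other cells also express, fell beside it with log₂FC of -2.07 and -1.14, while ERBB3 had at most 1 count in every library. TNFRSF25, the receptor for TL1A, had 132, 125, and 112 counts against 66, 42, and 30 (log₂FC -1.85, standard error 0.233, adjusted p = 8.50e-07). EDAR had at most 1 count in every library. With EDA and EDA2R at the same level, the ectodysplasin axis was not detectable beyond single reads in either group. EDA overlaps GPC3 and GPC4 in the reference gene table. GPC4 had 10524 to 11464 counts in the control libraries and 1116 to 1459 in the ATRA libraries. How reads on overlapping genes were counted is not given in the sources used here, so the EDA counts are uncertain.

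Among receptors that act through TRAFs, TNFRSF4 and CD40 showed the largest differences. TNFRSF4 encodes OX40, the receptor for the TNFSF4 product. It had 19, 30, and 28 counts in the control libraries and 202, 168, and 171 in the ATRA libraries, and rose from 0.804 ± 0.168 to 4.20 ± 0.437 CPM (SD, n = 3 each, log₂FC 2.38, standard error 0.211, adjusted p = 7.15e-09). Ligand and receptor thus moved in opposite directions. The count of TNFSF4 per count of TNFRSF4 was 128, 88.4, and 93.1 in the control libraries and 0.282, 0.363, and 0.251 in the ATRA libraries.

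CD40, the receptor by which T cells signal to antigen-presenting cells and fibroblasts, had 138, 126, and 124 counts without ATRA and 55, 55, and 64 with it. It fell from 4.07 ± 0.329 to 1.36 ± 0.166 CPM (SD, n = 3 each, log₂FC -1.58, standard error 0.184, adjusted p = 2.92e-07). TNFRSF1B, the second TNF receptor, had 1030, 975, and 1068 counts against 2175, 2334, and 2142. It rose from 32.2 ± 1.78 to 51.7 ± 1.30 CPM (SD, n = 3 each, log₂FC 0.68, standard error 0.0694, adjusted p = 4.80e-08), and its count per count of TNFRSF1A rose from 0.666 to 0.703 in the control libraries to 0.834 to 0.984 in the ATRA libraries.

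TNFRSF12A, the receptor for TWEAK, and LTBR, the receptor for LIGHT and lymphotoxin heterotrimers, did not pass the test. TNFRSF12A had 208 ± 7.26 and 195 ± 17.0 CPM (SD, n = 3 each, log₂FC -0.09, standard error 0.0638, adjusted p = 0.182). LTBR had 50.4 ± 6.07 and 49.2 ± 2.91 CPM (SD, n = 3 each, log₂FC -0.03, standard error 0.0823, adjusted p = 0.717). With library size only both were called higher, TNFRSF12A with a log₂FC of 0.38 (adjusted p = 2.69e-05) and LTBR with 0.45 (adjusted p = 0.000111). The count of TNFSF12 per count of TNFRSF12A, which no scaling can alter, was 0.134 to 0.142 without ATRA and 0.0579 to 0.0671 with it.

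TNFRSF6B encodes DcR3, a soluble decoy that binds FAS ligand, LIGHT, and TL1A. It had 10050, 11078, and 10090 counts in the control libraries and 10742, 9848, and 10388 in the ATRA libraries. Under TMM it fell from 327 ± 14.4 to 241 ± 15.4 CPM (SD, n = 3 each, log₂FC -0.44, standard error 0.0604, adjusted p = 2.51e-06), whereas with library size only the log₂FC was 0.0379 (adjusted p = 0.546). Its call therefore rests on the scaling.

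Of the remaining TRAF-binding receptors, TNFRSF9, TNFRSF11A, TNFRSF13B, TNFRSF18, TNFRSF19, and EDA2R had at most 3 counts in any library. TNFRSF9 and TNFRSF18 encode 4-1BB and GITR, the receptors of the TNFSF9 and TNFSF18 products, so for these pairs the ligand but not the receptor was measurable. TNFRSF8, which encodes CD30, had 3 to 10 counts in the control libraries and 6 to 7 in the ATRA libraries, and TNFRSF13C, the BAFF receptor, had 3, 6, and 0 against 0, 1, and 0.

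**Figure D3:**
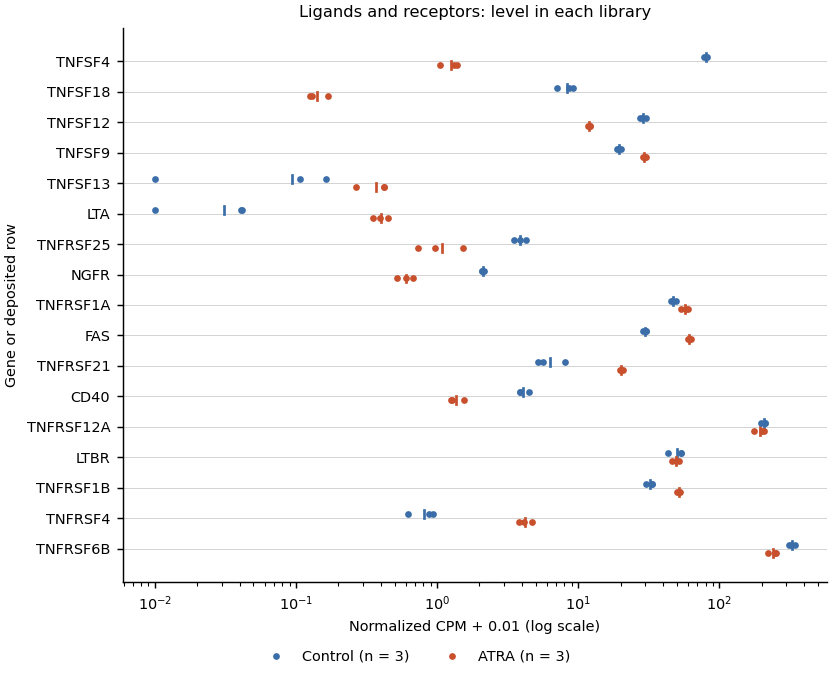
Each point is a library, with normalized CPM plus 0.01 on a log x axis, for the tested ligands and named receptors, and short bars are group means (control blue, ATRA red, n = 3 each). For TNFSF4 the control points sit near 80.5 CPM and the ATRA points near 1.25, while the groups lie on each other for LTBR.

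The goat table lists several rows for receptors of TRAIL, a death ligand, and the names do not say which copy is which. The 4 rows tested all rose, where 40.9% of all genes did. LOC108638455, named TNFRSF10A, had 364, 285, and 390 counts in the control libraries and 897, 904, and 806 in the ATRA libraries (log₂FC 0.89, standard error 0.108, adjusted p = 4.57e-07). LOC108638473, named TNFRSF10B, had 86, 81, and 96 counts against 301, 234, and 243 (log₂FC 1.13, standard error 0.155, adjusted p = 2.34e-06). The other rows named TNFRSF10B were LOC108635488, with 74, 83, and 78 counts against 212, 200, and 231 (log₂FC 1.02), and LOC108634850, with 20, 20, and 14 against 63, 39, and 45 (log₂FC 1.01). LOC108634850 lost its call with R's t.test (adjusted p = 0.0540). The remaining 3 rows, LOC108635334, LOC108635411, and LOC108635462, had at most 8 counts in any library.

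How reads shared between such copies were assigned is not given in the sources used here, so single rows are uncertain. All 7 rows were therefore also summed, a choice made after seeing the data. The sum rose from 16.8 ± 1.83 to 32.7 ± 1.56 CPM (SD, n = 3 each, log₂FC 0.96, standard error 0.0876, adjusted p = 9.85e-09). A pair of rows carry a TRAIL-receptor description under another symbol (LOC102175959) or without one (LOC108638538) and lie outside the rule. Adding them lowered the log₂FC of the sum to 0.39 (standard error 0.0639, adjusted p = 1.98e-05). LOC102175959, which is named RYK but described as TNFRSF10B, gave most of the added counts. It had 1119, 1217, and 1317 counts without ATRA and 1473, 1744, and 1578 with it, and LOC108638538 had a log₂FC of 0.77.

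The 3 Tnfrsf26 rows tested went the other way, where 38.7% of all genes fell. LOC106503960, LOC106503997, and LOC108634246 had log₂FC of -0.78, -0.74, and -0.45, with adjusted p = 8.65e-06, 5.52e-07, and 0.00181. LOC106503997 had 537, 546, and 571 counts without ATRA and 438, 484, and 410 with it. The sum of the 4 rows fell from 34.7 ± 0.439 to 21.8 ± 0.157 CPM (SD, n = 3 each, log₂FC -0.68, standard error 0.0710, adjusted p = 7.80e-08). With library size only LOC108634246 had a log₂FC of 0.0238 (adjusted p = 0.849).

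TRAFs are the cytoplasmic adaptors that carry receptor signals to NF-κB and MAP kinases, and several are ubiquitin ligases. TRAF2, which links both TNF receptors to the cIAP ligases, had 1038, 1093, and 1108 counts in the control libraries and 2754, 2609, and 2757 in the ATRA libraries. It rose from 33.9 ± 0.536 to 63.2 ± 3.77 CPM (SD, n = 3 each, log₂FC 0.90, standard error 0.0682, adjusted p = 7.64e-10). TRAF5, which shares functions with TRAF2 downstream of OX40 and CD40, had 3, 0, and 3 counts against 38, 24, and 29. Its ratio of scaled counts was 11.3 (exact 95% interval 4.98 to 31.5, adjusted p = 2.20e-05), at 0.708 ± 0.168 CPM with ATRA (SD, n = 3).

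TRAF7, a ligase of the family without the usual TRAF domain, had 3392, 3052, and 3203 counts without ATRA and 2498, 2168, and 2431 with it. It fell from 101 ± 7.56 to 55.2 ± 5.28 CPM (SD, n = 3 each, log₂FC -0.87, standard error 0.0753, adjusted p = 4.89e-09). The count of TRAF2 per count of TRAF7 was 0.306 to 0.358 in the control libraries and 1.10 to 1.20 in the ATRA libraries. TRAF1, itself a target of NF-κB, fell from 26.2 ± 1.37 to 16.8 ± 2.25 CPM (SD, n = 3 each, log₂FC -0.64, standard error 0.0952, adjusted p = 6.10e-06), but with library size only the log₂FC was -0.17 (adjusted p = 0.115).

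TRAF4, which has roles in epithelial and neural development, fell by 0.33 on the log2 scale under TMM (standard error 0.0743, adjusted p = 0.000593) and had a log₂FC of 0.15 with library size only (adjusted p = 0.0675). TRAF6, the adaptor for CD40 and interleukin-1 receptors, rose by 0.21 (standard error 0.0894, adjusted p = 0.0358). That call was lost with DESeq2 (adjusted p = 0.0675), RLE scaling (0.0555), and R's t.test (0.143), and without Control replicate 1 (0.0832), Control replicate 2 (0.174), ATRA replicate 2 (0.123), or ATRA replicate 3 (0.102). TRAF3, which restrains the non-canonical NF-κB pathway, stood at 47.8 ± 0.479 and 51.2 ± 2.08 CPM (SD, n = 3 each, log₂FC 0.10, adjusted p = 0.162), and it passed the test with upper-quartile scaling (adjusted p = 0.0178) and library size only (4.55e-07).

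Among all genes, 40.9% rose and 38.7% fell. Of the 3 adaptors, RIPK1 alone passed the test. This kinase, which decides between survival and death signals of the TNF receptor, had 2658, 2530, and 2680 counts in the control libraries and 5016, 5161, and 4672 in the ATRA libraries. It rose from 82.4 ± 3.81 to 115 ± 2.15 CPM (SD, n = 3 each, log₂FC 0.48, standard error 0.0584, adjusted p = 4.71e-07). FADD, the link from death receptors to caspase-8, had 47.8 ± 2.69 and 50.0 ± 1.85 CPM (SD, n = 3 each, log₂FC 0.07, standard error 0.0679, adjusted p = 0.380). TRADD, the adaptor of TNFRSF1A, had 19.2 ± 2.28 and 21.0 ± 0.941 CPM (SD, n = 3 each, log₂FC 0.13, standard error 0.0919, adjusted p = 0.201). TRADD overlaps FBXL8 in the reference gene table, and FBXL8 had 101 to 134 counts without ATRA and 226 to 237 with it. With library size only, FADD and TRADD were higher, at log₂FC of 0.54 and 0.61.

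**Figure D4:**
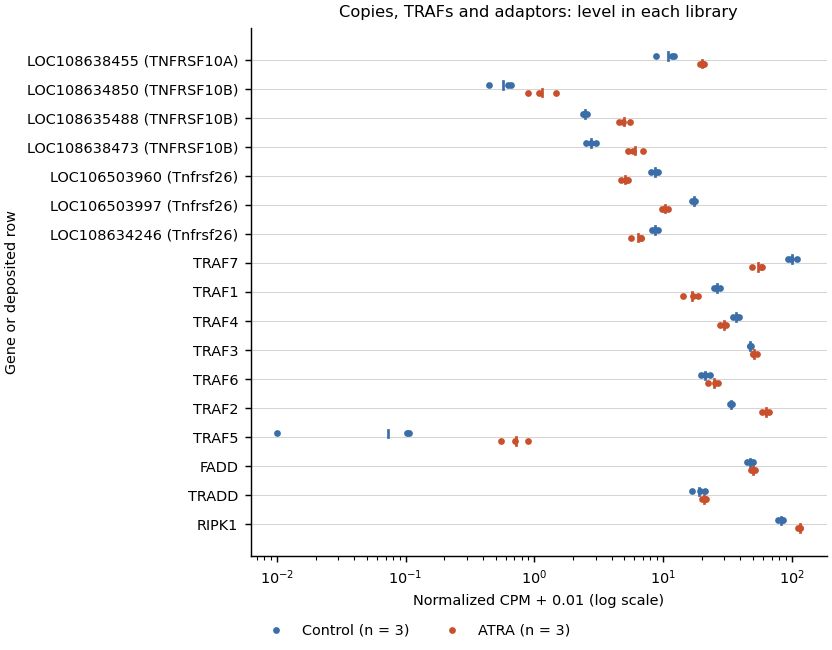
Each point is a library, with normalized CPM plus 0.01 on a log x axis, for the multi-copy receptor rows, the TRAFs, and the adaptors, and short bars are group means (control blue, ATRA red, n = 3 each). TRAF2 and RIPK1 lie to the right with ATRA and TRAF7 to the left, and TRAF5 starts from 0 to 3 counts.

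The other genes of the pathway were taken from 8 lists with 87 tested genes. Of these, 38 rose and 34 fell at an adjusted p under 0.05, with a median log₂FC of -0.0227 against 0.04 over all genes. These are 43.7% and 39.1% of the genes tested in the lists, near the 40.9% and 38.7% of all genes. With library size only 59 rose and 21 fell. Under that setting the median over all genes was 0.52, and the shares of all genes are not given here. The receptor-complex and ubiquitin list had 9 genes higher and 8 lower of 22, or 40.9% and 36.4%. UBE2N, the enzyme that builds K63-linked ubiquitin chains, fell by 1.48, and TNFAIP3, which encodes the feedback inhibitor A20, fell by 1.09 on the log2 scale. The deubiquitinase CYLD and the cIAP ligase BIRC3 rose by 0.86 and 0.81.

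Death-domain and necroptosis effectors had 6 genes higher and 4 lower of 13 tested, with a median log₂FC of 0.16. Those shares, 46.2% and 30.8%, stand against 40.9% and 38.7% of all genes. MLKL, the pore-forming effector of necroptosis, fell from 2.67 ± 1.08 to 0.555 ± 0.247 CPM (SD, n = 3 each). DEDD2, a gene with a death effector domain, rose from 4.68 ± 0.832 to 14.4 ± 1.13 CPM (SD, n = 3 each).

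NF-κB target genes had 10 genes higher and 4 lower of 17 tested, with a median log₂FC of 0.49 against 0.04 over all genes. Those shares were 58.8% and 23.5%, where 40.9% and 38.7% of all genes were called. The chemokine gene CXCL8 rose from 15.6 ± 1.12 to 223 ± 12.0 CPM, and IL6 from 15.0 ± 0.725 to 98.7 ± 4.02 CPM (SD, n = 3 each). The early-response gene IER3 rose by 2.32 on the log2 scale, and PLAU, which encodes urokinase, fell by 1.93. In the non-canonical and MAP3K list, with 5 higher and 3 lower of 9 (55.6% and 33.3%, against the same background), RELB and the kinase gene TNIK rose by 1.20 and 2.23, while the kinase genes MAP3K5 and MAP4K2 fell by 1.64 and 1.57. An adjusted p under 0.05 was a condition for naming these genes. Their groups did not overlap, which held for 41.2% of all genes with ATRA higher and 39.0% with ATRA lower.

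TRAF-binding adaptors had 3 genes higher and 6 lower of 11 tested, or 27.3% and 54.5% against 40.9% and 38.7% of all genes. SQSTM1, the p62 scaffold that binds TRAF6 and also carries cargo to autophagy, rose from 487 ± 7.34 to 5695 ± 271 CPM (SD, n = 3 each, log₂FC 3.55). TRAIP, a ubiquitin ligase of replicating cells, fell by 4.93 on the log2 scale. BEX3, which binds NGFR, had a log₂FC of -2.42, and TRAF3IP2, the adaptor of interleukin-17 receptors, of -1.37. EDARADD, the adaptor of EDAR, had at most 3 counts in every library.

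Genes that release ligands and receptors from the surface were 3 higher and 3 lower of 6 (50.0% each, against 40.9% and 38.7% of all genes). RHBDF2, which encodes iRhom2, the cofactor that matures the TNF-releasing protease ADAM17, rose from 7.12 ± 0.502 to 76.3 ± 3.13 CPM (SD, n = 3 each, log₂FC 3.42, standard error 0.0820, adjusted p = 2.14e-17). ADAM17 itself rose by 0.69 on the log2 scale. Its inhibitor gene TIMP3 fell from 2044 ± 22.4 to 337 ± 13.3 CPM (SD, n = 3 each, log₂FC -2.60, standard error 0.0598, adjusted p = 1.15e-17), and RHBDF1, the gene of iRhom1, fell by 1.11.

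Neurotrophin genes and partners of NGFR had 5 of 6 tested genes lower and 1 higher, with a median log₂FC of -2.18. The list is small, and over all genes 38.7% were lower, 40.9% were higher, and the median was 0.04. BDNF, a ligand of NGFR and TrkB, had 39, 34, and 28 counts in the control libraries and 0, 1, and 0 in the ATRA libraries, a ratio of 0.00735 (exact 95% interval 0.000184 to 0.0419). NTRK2, the gene of TrkB, fell from 27.5 ± 0.742 to 1.38 ± 0.357 CPM (SD, n = 3 each, log₂FC -4.32, standard error 0.136), and NTRK3, the gene of TrkC, fell by 2.85. The Nogo receptor gene RTN4R, a partner of NGFR, fell by 1.51. Among family genes outside the name rule, RELL1 rose by 1.77 and RELT fell by 1.32, while CD40LG had 0 counts in every library but ATRA replicate 3, with 4, and was not tested.

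**Figure D5:**
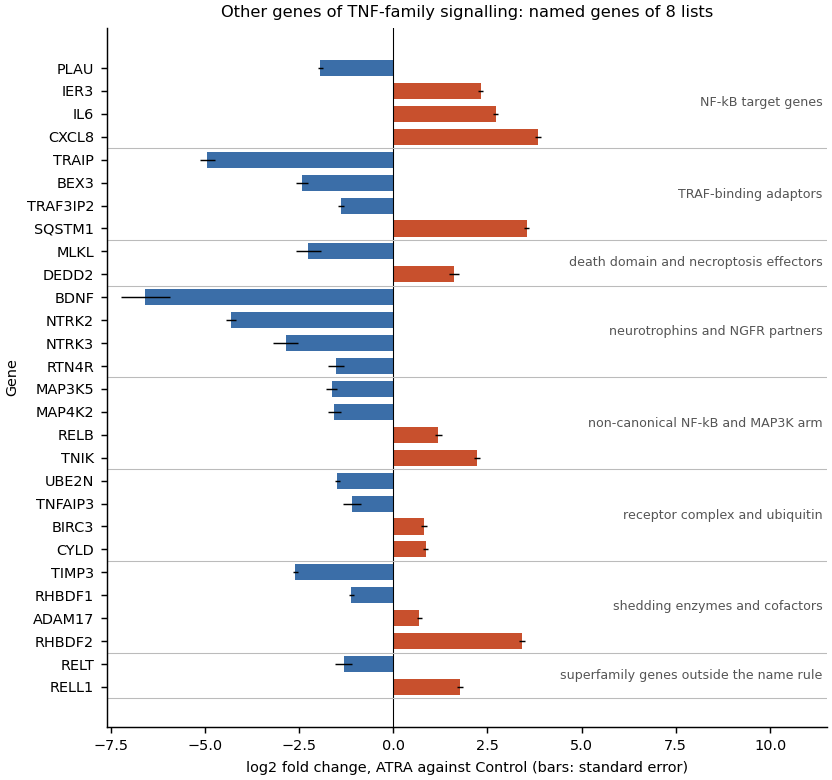
Bars give the log₂ fold change of ATRA against control with its standard error for up to 4 genes of each of 8 pathway lists, red where higher and blue where lower. SQSTM1, CXCL8, and RHBDF2 extend farthest to the right, at 3.55, 3.84, and 3.42, and BDNF, whose fitted value rests on 1 read with ATRA, farthest to the left.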

How the data were processed

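mRNA captured with oligo(dT) beads was sequenced from 6 cultures. Per the study's methods, the authors cleaned reads with fastp and TrimGalore, and the submitters' processing notes name HISAT2, featureCounts, and DESeq2. The authors deposited whole-number read counts per gene without normalization. The genome build, the annotation, the strand setting, and the handling of shared reads are not given in the sources used here. The dose comes from the study's text, and the labels give none.

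From the counts, 12588 of 15944 genes passed edgeR's expression filter and were scaled by TMM. They were fitted across all genes with edgeR's robust quasi-likelihood model on all 6 libraries, without covariates, and p-values were adjusted by Benjamini-Hochberg over every gene in the fit. The study's R t.test function served as an alternative because it does not suit counts. Standard errors were |log₂FC| over the square root of F, with a prior count of 0.125. The floor was 3 counts per library, and intervals cover counting error only. Every per-sample column was used.

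Members, pathway lists, and within-library ratios were chosen with earlier results of these data known. Values in every library were given for members with |log₂FC| above 1, an adjusted p under 0.05, and at least 1 CPM in either group, and for members that rose from the floor. From each list, up to 4 genes with the largest change were named, and some of these are not reported here. Other members were given in full to show each role, and these, EDARADD, and CD40LG were chosen after seeing their values. The leukocyte, endothelial, keratinocyte, melanocyte, Schwann cell, adipocyte, and mesenchymal marker lists were read as summed levels. Endothelial markers summed to 0.903 to 1.24 CPM in the control and 6.26 to 9.18 CPM in the ATRA libraries, with CDH5 and ESAM at 3 counts or fewer. PECAM1, at 0 counts in every control library, gave 77.8% to 84.0% of the ATRA sums, and TEK, with 14 to 23 counts in the control and 39 to 57 in the ATRA libraries, was also called higher (adjusted p = 0.0122). KDR had 5, 6, and 10 counts without ATRA and 2, 1, and 0 with it, and VWF did not pass the test (log₂FC 0.06). Keratinocyte markers summed to 3.11 to 5.10 and 5.53 to 6.18 CPM, melanocyte markers to 16.1 to 17.6 and 32.2 to 39.0 CPM, and adipocyte markers to 5.47 to 7.44 and 17.3 to 19.8 CPM. KRT10 gave most of the keratinocyte sums and rose (log₂FC 0.82), while KRT14 went from 20, 14, and 10 counts to 3, 0, and 0. The other listed keratinocyte genes had at most 7 counts in any library. MITF gave most of the melanocyte sums and rose (log₂FC 1.33), while PMEL fell (log₂FC -0.90) and TYRP1 had at most 1 count. CEBPA gave most of the adipocyte sums and rose (log₂FC 1.55), as did PLIN1 (1.20). ADIPOQ, also called higher (1.04), had overlapping groups. Of the markers fixed, 3 of 7 melanocyte and 3 of 6 adipocyte genes were listed. The others were 8 of 11 keratinocyte, 6 of 9 endothelial, 4 of 7 Schwann cell, and 16 of 17 mesenchymal genes. Schwann cell markers summed to 165 to 167 and 57.0 to 59.2 CPM, and mesenchymal markers to 87881 to 89774 and 4624 to 4937 CPM.

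All 55 member names matched RefSeq's ARS1.2 gene table, from which neighbours and overlaps but no coordinates were taken. The sequences of the members were not used here. Replicates were not copies of a library (their counts differed with a chi-square of 5.16 to 19.2 for each degree of freedom). Counts were also simulated over 12588 genes, with the same dispersion for every gene. There edgeR recovered 87 of 90 genes changed by 1 and 109 of 110 changed by 2 on the log2 scale, with 10 unchanged genes called. In the data 40.9% of genes were called higher and 38.7% lower, far more than were changed in the simulation. The simulation therefore cannot tell how scaling bears on the calls in these data. The software was edgeR 4.0.16, DESeq2 1.42.0, and limma 3.58.1 under R 4.3.3, with matplotlib 3.10.9 under Python 3.11.15.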

Additional observations from a re-analysis of the deposited data

How the results depend on the processing

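Over the alternatives, 23 of the 34 tested members kept their direction and their side of the threshold, and 5 changed sign under at least 1 setting. With library size only, TNFRSF6B (0.0379), TRAF4 (0.15), LOC108634246 (0.0238), TNFRSF12A (0.38), and LTBR (0.45) turned positive, and the pathway lists had 59 genes higher and 21 lower. LTBR was also positive with upper-quartile scaling (0.0439) and ranged from -0.14 to 0.0120 when each library was left out. The number of members past the fold threshold was 3 higher with R's t.test on log2(CPM + 1), and 4 higher and 2 lower at |log₂FC| above 2. The shares of all genes under these settings and with library size only are not given here. Without the filter on low counts, LTB joined the higher members and TNFSF14, TNFRSF13C, and TNFRSF19 the lower ones. The cause of each change was not tested. With the replicate number as a block, 16 members were higher and 13 lower, as without it, and 8 in place of 9 passed the fold threshold upward. The labels do not say that a number marks an animal, and same-numbered libraries did not deviate together (correlations of 0.0892, 0.0299, and -0.0764 across genes).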

Other observations

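Several members lie side by side in RefSeq's ARS1.2 gene table, which was not stated to be the build of the counts, so only the order of genes is used. TNFSF18 and TNFSF4 are direct neighbours, with FASLG on the other side of TNFSF18. The log₂FC was -5.94 for TNFSF18 (standard error 0.243) and -6.00 for TNFSF4 (standard error 0.102), FASLG had at most 1 count in every library, and SUCO, the next gene beyond FASLG, had a log₂FC of 1.54. TNFSF12 and TNFSF13 are also neighbours and moved in opposite directions, at -1.26 and 2.05. TNFRSF4 lies beside TNFRSF18, which had at most 1 count in every library while TNFRSF4 rose, and TNFRSF1B lies beside TNFRSF8, which stayed at 10 counts or fewer. FAS, with a log₂FC of 1.04, lies beside ACTA2, with -9.62. Whether the values of neighbouring genes are related was not tested.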
